A study of Mus musculus with 6 samples.

Results

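Microglia are the resident macrophages of the brain, and the genes described here are 34 listed genes that mark these cells, form their phagocytic and immune receptors, or belong to the complement system. They were taken by name from the GENCODE M21 annotation and found among the 54532 gene identifiers of RNA sequencing libraries from whole mouse brains at postnatal day 14. The study asked which transcripts change when Mphosph8 is deleted in the nervous system. Mphosph8 encodes MPP8, a subunit of the HUSH complex, which silences transcription from chromatin carrying trimethylated lysine 9 of histone H3. There was 1 library per brain, from 3 control mice labelled Mphosph8fl/+ Nestin-Cre+ and 3 mutant mice with both alleles floxed and the same transgene, labelled Mphosph8∆n, all on a C57BL/6J background. The study's own text names only the transgene for its controls, and the labels were followed here. Nestin-Cre is expressed in neural progenitors and removes the floxed exon from their progeny (neurons, astrocytes and oligodendrocytes), so that both groups carried the recombinase and the microglia of the mutants were not themselves recombined by it. By their label the controls carried 1 floxed allele, which the recombinase removes in the same cells. The comparison is thus of both alleles lost against 1 lost, and not against intact cells.

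Microglia arise from progenitors of the yolk sac and enter the brain before birth, separately from the neural lineage. They depend on the receptor encoded by Csf1r and on its ligands, which neural cells supply, and in the postnatal weeks they engulf dying cells and surplus synapses. In synapse removal the complement protein C1q and fragments of C3 mark material that microglia take up through the receptor formed by Itgam and Itgb2. In RNA of a whole brain the levels of these genes depend both on how many microglia there are and on how much RNA each holds, and fewer cells and less RNA per cell cannot be told apart.

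The libraries held between 12956880 and 15223424 counts, of which the 34 genes took 0.117% to 0.135%. Levels are given as CPM, which are counts scaled to a common library size. Mphosph8, counted over the whole gene including exons outside the floxed one, was at 55.8, 48.6 and 70.7 CPM in the controls and at 33.1, 27.2 and 26.5 CPM in the mutants, a log2 fold change of -1.02 ± 0.12 (SE, adjusted p = 0.000157 by edgeR's quasi-likelihood test). The gene was thus lower in every library labelled mutant. Control replicate 3 stood apart as the only library with more than 1 count from Y-linked genes (Ddx3y, 1338 counts), and the labels give no sex. Xist, which is transcribed from the inactive X chromosome of females, had 27 counts in that library and 11130 to 17697 in the others. By these counts control replicate 3 was the only male, and sex was not balanced between the genotypes. The part of sex in the levels of the genes described here was not tested. Mutant replicate 3 stood apart in the genes described here, as set out with the values by library.

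Of the 34 genes, 32 passed the filter on low counts and were tested, and 0 of them differed between mutants and controls at an adjusted p under 0.05 in edgeR (Benjamini-Hochberg over 16731 genes). Over all genes tested 0.628% passed that threshold, and 0.359% passed it with a fold change over 2. DESeq2 and limma-voom likewise called 0 of the 32. At an unadjusted p under 0.05 there were 3 of the 32 (Siglech and Ctss higher in the mutants, Spp1 lower), or 9.38%, against 6.51% of all genes, of which 4.09% were higher and 2.41% lower. Log2 fold changes ran from -0.50 for Spp1 to 0.30 for C3ar1, with a median of 0.06 against -0.01 over all genes. They were above 0 for 22 of the 32, or 68.8%, against 47.6% of all genes, and they stayed small in either direction.

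The precision of these comparisons was set by the spread between brains and by the counts behind each gene. The median width of the 95% interval of the log2 fold change was 0.44. For 28 of the 32 genes the whole interval lay within a 1.5-fold change either way, which was so for 74.3% of all genes tested. This limit was chosen after the values were seen. The intervals of C3, C3ar1 and Clec7a held both 0 and a change past this limit, so that for these genes such a change was not distinguishable at this depth and number of mice. The interval of Spp1 also reached past the limit, but it left out 0.

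**Figure D1:**
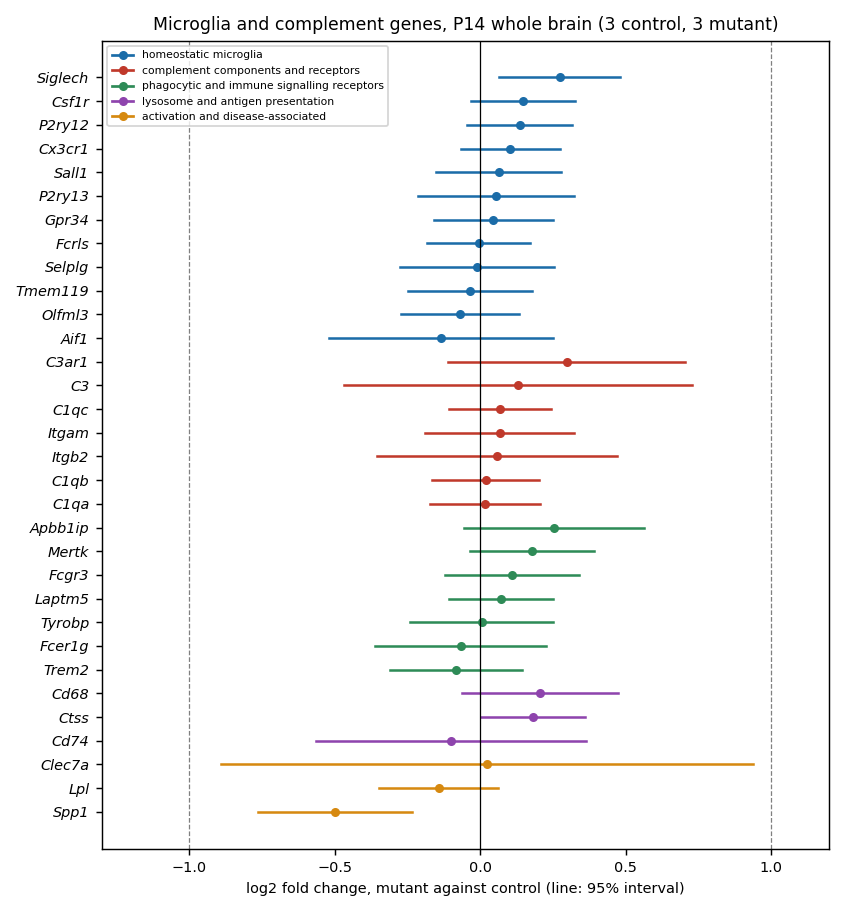
Log2 fold change of each of the 32 tested genes, mutant against control, with points for the estimates and lines for their 95% intervals from edgeR, coloured by role. Dashed lines mark a 2-fold change either way. The estimates lie between -0.50 for Spp1 and 0.30 for C3ar1, none of the intervals reaches a 2-fold change, and only those of Siglech, Ctss and Spp1 leave out 0.

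**Figure D2:**
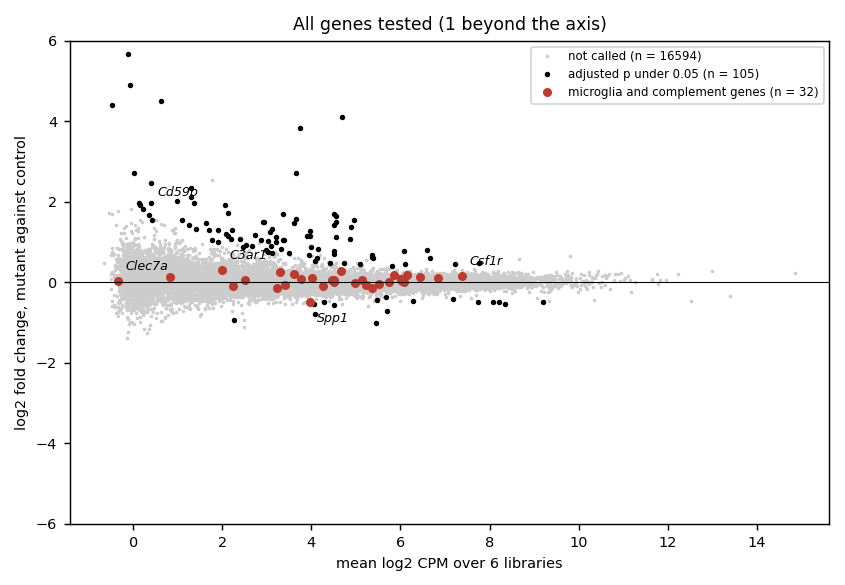
Log2 fold change against mean log2 CPM for all genes tested, with genes at an adjusted p under 0.05 in black and the 32 microglia and complement genes in red. The red points stay close to 0 over the whole range of expression, and 1 gene lies beyond the vertical axis.

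The 12 genes of homeostatic microglia, which the cells express in the healthy brain, were all tested and all had intervals within the 1.5-fold limit. Cx3cr1, the receptor for the neuronal chemokine fractalkine, was at 111, 113 and 107 CPM in the controls and at 117, 109 and 129 CPM in the mutants (log2 fold change 0.10 ± 0.08 SE, adjusted p = 0.921 by edgeR). Csf1r, the receptor on which microglial survival depends, was at 163, 163 and 151 CPM in the controls and at 178, 158 and 192 CPM in the mutants (0.15 ± 0.09, adjusted p = 0.871 by edgeR). For both genes the highest library was mutant replicate 3 and the groups overlapped. Csf1r shares 873 exonic bases with Hmgxb3 on the opposite strand, and whether strand was used in counting is not given in the sources used here.

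P2ry12, the purinergic receptor with which microglial processes sense ATP and ADP, was at 82.8, 81.6 and 83.5 CPM in the controls and at 83.9, 85.7 and 103 CPM in the mutants (log2 fold change 0.14 ± 0.09 SE, adjusted p = 0.897 by edgeR). Each mutant value lay above each control value, but mutants 1 and 2 exceeded the highest control by little and most of the difference came from mutant replicate 3. Siglech, a sialic acid binding receptor, had 22.1, 23.1 and 23.8 CPM in the controls and 27.2, 25.9 and 30.3 CPM in the mutants. Its groups did not overlap either, and its log2 fold change of 0.27 ± 0.10 (SE) was the largest of the homeostatic genes, with an unadjusted p of 0.0128 and an adjusted p of 0.473 by edgeR.

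Tmem119, a membrane protein that in the brain is specific to microglia, was at 52.9, 44.9 and 40.0 CPM in the controls and at 45.2, 41.9 and 47.4 CPM in the mutants (log2 fold change -0.03 ± 0.10 SE, adjusted p = 0.988 by edgeR). Aif1, which encodes the microglial stain IBA1, was at 13.2, 7.54 and 8.17 CPM in the controls and at 8.0, 9.26 and 9.09 CPM in the mutants (-0.14 ± 0.18, adjusted p = 0.966 by edgeR). The negative sign for Aif1 came from control replicate 1, and without that library the log2 fold change was 0.16.

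The other homeostatic genes had log2 fold changes between -0.07 and 0.06, all with adjusted p over 0.9 in edgeR. Sall1, a transcription factor that keeps microglial identity, had a mean of 34.5 ± 1.43 CPM (SD, n = 3) in the controls and 36.0 ± 4.94 in the mutants. Fcrls, an Fc receptor-like gene, had 53.3 ± 2.17 and 53.1 ± 3.39 CPM, and Gpr34, a receptor for lysophosphatidylserine, had 22.3 ± 0.64 and 23.0 ± 1.22 CPM. P2ry13, a relative of P2ry12 that lies beside it on chromosome 3, had 21.3 ± 3.31 and 22.2 ± 3.11 CPM. Olfml3 had 38.2 ± 2.6 and 36.4 ± 3.48 CPM, and Selplg, a selectin ligand, had 31.5 ± 4.29 and 31.2 ± 5.49 CPM. In each of these 6 genes the difference of the means was smaller than the larger SD.

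Among the complement genes the 3 chains of C1q, the protein that starts the classical pathway, stood at nearly the same level in both genotypes. C1qa was at 73.6, 68.9 and 58.4 CPM in the controls and at 69.9, 65.2 and 68.0 CPM in the mutants, a log2 fold change of 0.02 with a 95% interval from -0.17 to 0.20. C1qb was at 69.2, 67.5 and 58.7 CPM in the controls and at 62.4, 64.5 and 71.0 CPM in the mutants (0.02, interval -0.16 to 0.20). C1qc was at 65.7, 64.4 and 58.5 CPM in the controls and at 64.8, 62.0 and 70.7 CPM in the mutants (0.07, interval -0.11 to 0.24). The lowest library of all 3 chains was control replicate 3, and without it the log2 fold changes of C1qa and C1qb were -0.073 and -0.049.

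The chains are assembled in equal numbers into 1 protein, and their genes lie next to each other on the minus strand of chromosome 4 (C1qb at 136880129 to 136886187, C1qc at 136889804 to 136893065 and C1qa at 136895917 to 136898803, GRCm38). Of the summed C1q CPM, C1qa took 32.4% to 35.5% in the 6 libraries, C1qb 31.7% to 33.9% and C1qc 31.5% to 33.7%. The chains thus kept their proportions in every brain. Per kilobase of exon, control levels were 64.4 CPM for C1qa, 59.9 for C1qb and 32.5 for C1qc, which has the most exonic bases of the 3. Exonic bases were those of all annotated transcripts of a gene merged, so levels per kilobase depend in part on the annotation.

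C3, the central complement component, was low at 1.4, 1.61 and 1.69 CPM in the controls and 1.52, 1.42 and 2.18 CPM in the mutants (log2 fold change 0.13 ± 0.28 SE, adjusted p = 0.984 by edgeR). C3ar1, the receptor for the C3a fragment, was at 3.39, 3.22 and 3.71 CPM in the controls and at 4.24, 3.73 and 4.73 CPM in the mutants. The C3ar1 groups did not overlap, with mutant replicate 2 just above control replicate 3, and its log2 fold change of 0.30 ± 0.19 (SE) had an adjusted p of 0.897 by edgeR.

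Itgam, the alpha subunit of complement receptor 3 and the microglial marker CD11b, was at 11.7, 13.5 and 14.2 CPM in the controls and at 13.2, 13.3 and 14.8 CPM in the mutants (log2 fold change 0.07 ± 0.12 SE, adjusted p = 0.979 by edgeR). Of its 5024 exonic bases, 3450 overlap another gene model on the same strand, Gm49368, which had 0 counts in all libraries. How reads in that overlap were counted is not given in the sources used here. Its partner Itgb2 had means of 5.48 ± 1.1 (SD, n = 3) and 5.72 ± 1.24 CPM. The 7 complement genes all had log2 fold changes above 0, from 0.02 to 0.30, against 47.6% of all genes. The signs of C1qa, C1qb, C3 and Itgam reversed in some fits that left out 1 library. Mutant replicate 3 held the highest value of 5 of the 7. Intervals of 5 of the 7 lay within the 1.5-fold limit.

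The 7 genes of phagocytic and immune signalling receptors had log2 fold changes from -0.08 to 0.25, and all of their intervals lay within the 1.5-fold limit. Trem2, a lipid-sensing receptor of microglia, was at 21.5, 18.6 and 18.1 CPM in the controls and at 17.8, 18.4 and 18.8 CPM in the mutants (log2 fold change -0.08 ± 0.11 SE, adjusted p = 0.962 by edgeR). Tyrobp, which encodes the adaptor DAP12 through which Trem2 signals, was at 25.8, 21.3 and 20.7 CPM in the controls and at 19.7, 23.1 and 25.2 CPM in the mutants (0.01 ± 0.12, adjusted p = 0.998 by edgeR). The receptor and its adaptor both had their highest value in control replicate 1.

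Apbb1ip, a Rap1 effector that acts in integrin activation, had the largest log2 fold change of these receptors and signalling genes. It was at 9.31, 9.01 and 8.03 CPM in the controls and at 11.4, 8.51 and 11.6 CPM in the mutants (log2 fold change 0.25 ± 0.15 SE, adjusted p = 0.873 by edgeR), and mutant replicate 2 lay inside the control range. Mertk, a receptor for the engulfment of apoptotic cells that astrocytes also express, had means of 53.8 ± 4.90 (SD, n = 3) and 60.9 ± 8.38 CPM. Fcgr3, a low-affinity receptor for IgG, had 15.4 ± 0.65 and 16.6 ± 1.03 CPM, and 9.58% of its 50-base words are shared with Fcgr2b. Fcer1g, the signalling chain that Fc receptors share, had 10.6 ± 0.73 and 10.1 ± 1.52 CPM. Laptm5, a lysosomal membrane protein of blood-lineage cells, had 63.2 ± 1.14 and 66.4 ± 6.31 CPM.

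Of the 3 genes of the lysosome and of antigen presentation, the protease gene Ctss, which encodes cathepsin S, was at 69.8, 65.9 and 62.2 CPM in the controls and at 72.4, 69.8 and 81.9 CPM in the mutants. Mutant replicate 2 and control replicate 1 were equal to the precision given. The log2 fold change of Ctss was 0.18 ± 0.08 (SE), with an unadjusted p of 0.049 and an adjusted p of 0.764 by edgeR. Cd68, a lysosomal glycoprotein of phagocytes, was at 11.2, 11.4 and 11.3 CPM in the controls and at 11.6, 12.5 and 14.98 CPM in the mutants (0.20 ± 0.13, adjusted p = 0.893 by edgeR). The 3 controls lay very close together and all mutants above them, with the widest gap for mutant replicate 3. Cd74, the invariant chain of class II antigen presentation, was at 5.12, 5.79 and 3.44 CPM in the controls and at 5.52, 3.51 and 4.36 CPM in the mutants (-0.10 ± 0.22, adjusted p = 0.985 by edgeR).

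The genes that microglia raise around plaques, on myelin or in the early postnatal white matter were low in these brains, apart from Lpl and Spp1, which other brain cells also express. Cst7, the inhibitor cystatin F, had 6, 5 and 0 counts in the controls and 1, 4 and 2 in the mutants, and Itgax, which encodes CD11c, had 4, 6 and 3 counts and 2, 3 and 1 counts. These were the 2 genes that were not tested. Clec7a, the receptor dectin-1, which the annotation classes as a polymorphic pseudogene, was at 0.80, 0.73 and 0.40 CPM in the controls and at 0.40, 0.75 and 0.80 CPM in the mutants. With so few reads the 95% interval of its log2 fold change ran from -0.89 to 0.94.

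Spp1, which encodes the secreted protein osteopontin (chromosome 5, 104435118 to 104441050, GRCm38), had the smallest p of the 32 genes. It was at 17.7, 18.1 and 18.2 CPM in the controls (mean 18 ± 0.28 SD, n = 3) and at 13.3, 14.6 and 10.4 CPM in the mutants (12.7 ± 2.13). All mutant values lay below all control values, and mutant replicate 3 was the lowest. The log2 fold change was -0.50 ± 0.13 (SE, 95% interval -0.76 to -0.23), with an unadjusted p of 0.000934 and an adjusted p of 0.110 by edgeR. Without the filter on low counts the adjusted p was 0.0182, and over all alternatives it ran from 0.0182 to 0.669, while the log2 fold change stayed between -0.61 and -0.37. Of its 1648 exonic bases, 309 overlap the gene model Gm42793 on the same strand. Lpl, lipoprotein lipase, had means of 42.9 ± 3.66 and 38.9 ± 3.86 CPM (-0.14 ± 0.10, adjusted p = 0.904 by edgeR).

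Markers of oligodendrocytes moved in the same direction as Spp1. All 8 listed markers were lower in the mutants at an unadjusted p under 0.05 in edgeR, against 2.41% of all genes. Mog and Cldn11 passed the adjusted threshold in edgeR with adjusted p of 0.0351 and 0.0496, in the direction that 0.0956% of all genes took. For 6 of the 8 all mutant values lay below all control values, against 5.42% of all genes. The summed level of the 8 was 21602 to 25871 CPM in the controls and 17146 to 19870 CPM in the mutants, none of the 8 was at 0, and the lowest library was mutant replicate 3, as for Spp1. The Mog and Cldn11 calls held in 8 and 6 of 13 alternative settings. The part of these cells in the Spp1 difference was not tested.

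**Figure D3:**
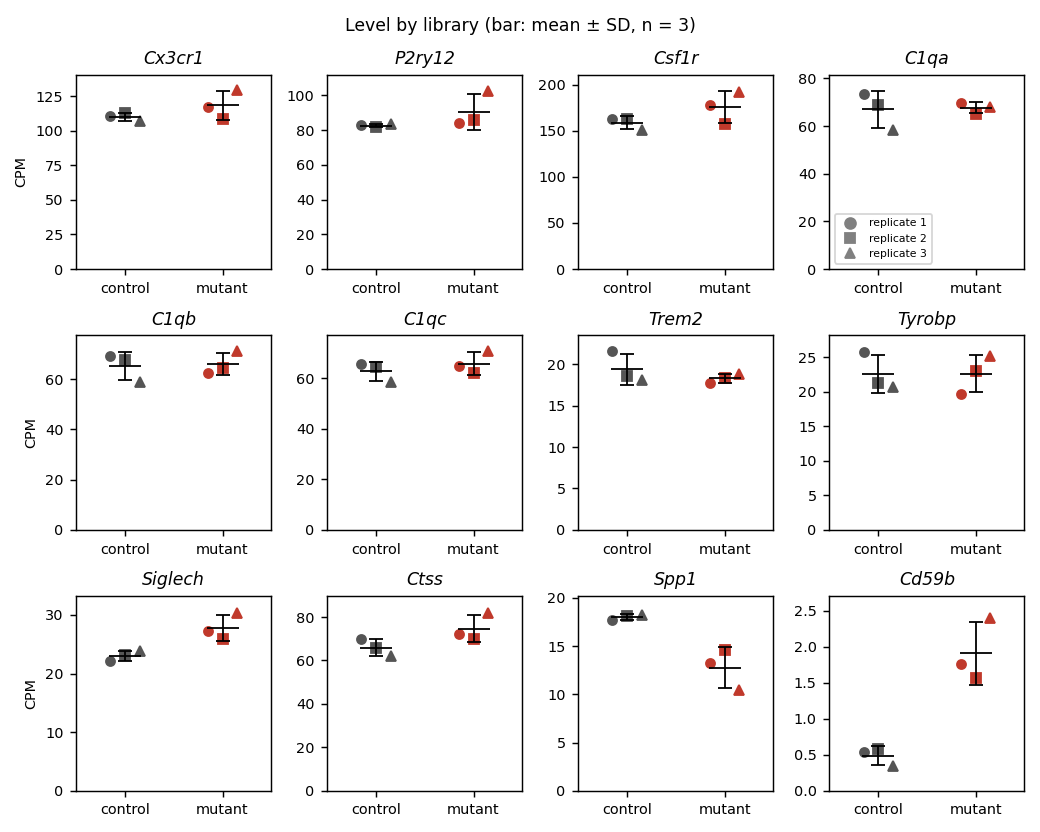
Level in CPM of 11 of the microglia and complement genes and of Cd59b in each library, with grey points for controls, red points for mutants, shapes for replicate numbers, and lines for the mean and SD of 3 libraries. Vertical axes start at 0 and differ between genes. The groups overlap for Cx3cr1, Csf1r, C1qa, C1qb, C1qc, Trem2, Tyrobp and Ctss, and do not for P2ry12, Siglech, Spp1 and Cd59b.

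Across the 32 tested genes, the groups did not overlap for P2ry12, Siglech, C3ar1 and Cd68, which were higher in the mutants, and for Spp1, which was lower. These 5 are 15.6% of the genes, against 11.6% of all genes tested, which divide into 6.23% with all mutants above all controls and 5.42% with all mutants below. Mutant replicate 3 held the highest value of 20 of the 32 genes, or 62.5%, and of 17.6% of all genes tested. Control replicates 1, 2 and 3 held the highest value of 5, 1 and 3 of the 32 genes (20.4%, 10.7% and 16.8% of all genes), and mutant replicates 1 and 2 of 3 and 0 (21.6% and 12.9%). Relative to each gene's control mean, the median log2 ratio of the 32 genes was 0.05, 0.01 and -0.05 in the controls and 0.03, -0.03 and 0.18 in the mutants. Mutant replicate 3 thus held more of these transcripts than the other 5 libraries, which differed little among themselves. Without mutant replicate 3 the median log2 fold change of the 32 genes was -0.01, and when each other library was left out it lay between 0.04 and 0.11.

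The summed level of all 34 genes was 1228, 1190.5 and 1146 CPM in the controls and 1235, 1156 and 1340.5 CPM in the mutants, a ratio of the means of 1.05. By role, the ratio was 1.06 for the homeostatic genes, 1.03 for complement, 1.06 for the receptors and 1.12 for the lysosomal and antigen presentation genes. Ctss made up most of the last of these sums, with a control mean of 66.0 of 82.1 CPM. The C1q chains made up most of the complement sum. In each of these 4 groups mutant replicate 3 was highest and the genotypes overlapped. The activation genes went the other way, at 60.9, 59.5 and 65.8 CPM in the controls and 57.2, 53.2 and 47.4 CPM in the mutants, with no overlap and a ratio of 0.847. Lpl and Spp1 made up nearly all of that sum.

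**Figure D4:**
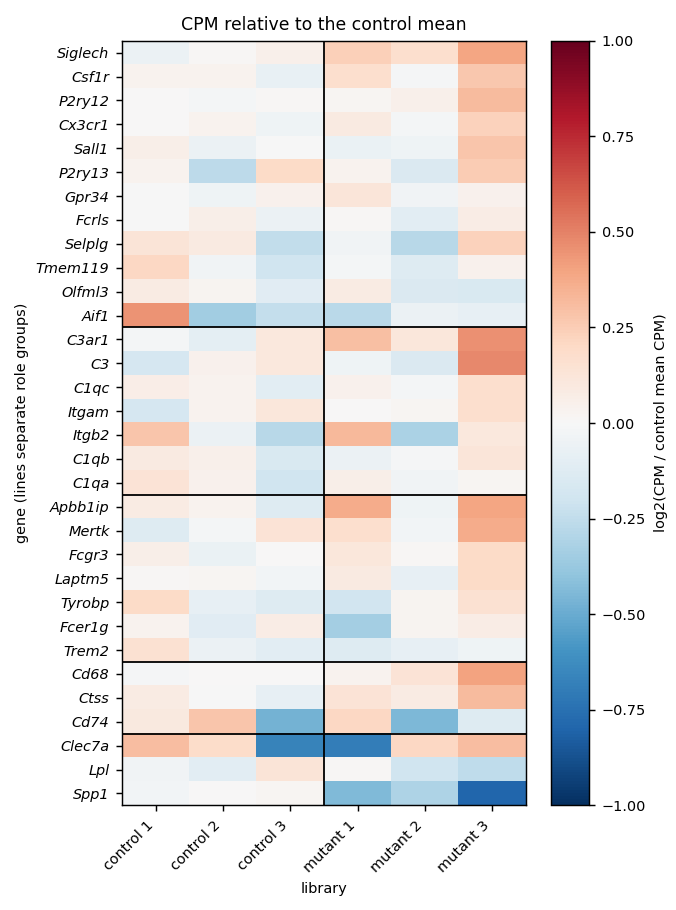
Log2 ratio of the CPM in each library (columns) to the control mean for the 32 tested genes (rows, ordered within each role group by log2 fold change), with red above and blue below the control mean. The column of mutant replicate 3 is the reddest, with the highest value of 20 of the 32 genes, while its Spp1 value is the lowest of all libraries.

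Blood and border macrophage markers were examined because these cells share many of the genes. Of 10 markers of border macrophages, which line the vessels and meninges, 9 were tested. In edgeR 0 of the 9 passed at an adjusted or an unadjusted p under 0.05, against 0.628% and 6.51% of all genes. The sum of the 10 markers was 73.1 to 89.5 CPM in the controls and 73.9 to 80.8 CPM in the mutants. Mutant replicate 3, at 79.2 CPM, lay inside the control range. The 14 blood leukocyte markers summed to 4.06 to 4.61 CPM in the controls and 3.92 to 6.18 CPM in the mutants, and 13 of them were too low to be tested. T cell and natural killer cell genes were at or near 0, with Cd3e at 2 counts in each group. The highest leukocyte sum was in mutant replicate 3, and its part in the levels of the microglial genes was not tested.

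Red blood cell markers (7 of 7 tested) summed to 335 to 409 CPM in the controls and 330 to 418 CPM in the mutants. In edgeR 0 of the 7 passed the adjusted or unadjusted threshold, against 0.628% and 6.51% of all genes. Among the other brain cells, 0 of 9 neuron, 0 of 8 astrocyte, 0 of 4 oligodendrocyte progenitor and 0 of 5 endothelial markers passed the adjusted threshold in edgeR. Without adjustment 1 in each list passed, as did 6.51% of all genes. The sum of the astrocyte markers was 1.09 times the control mean in the mutants, with overlapping groups, and that of the neuron markers 1.01 times. For 3 of the 8 astrocyte and 2 of the 9 neuron markers all mutant values lay above all control values, against 6.23% of all genes. For 0 of either list they all lay below, against 5.42% of all genes.

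**Figure D5:**
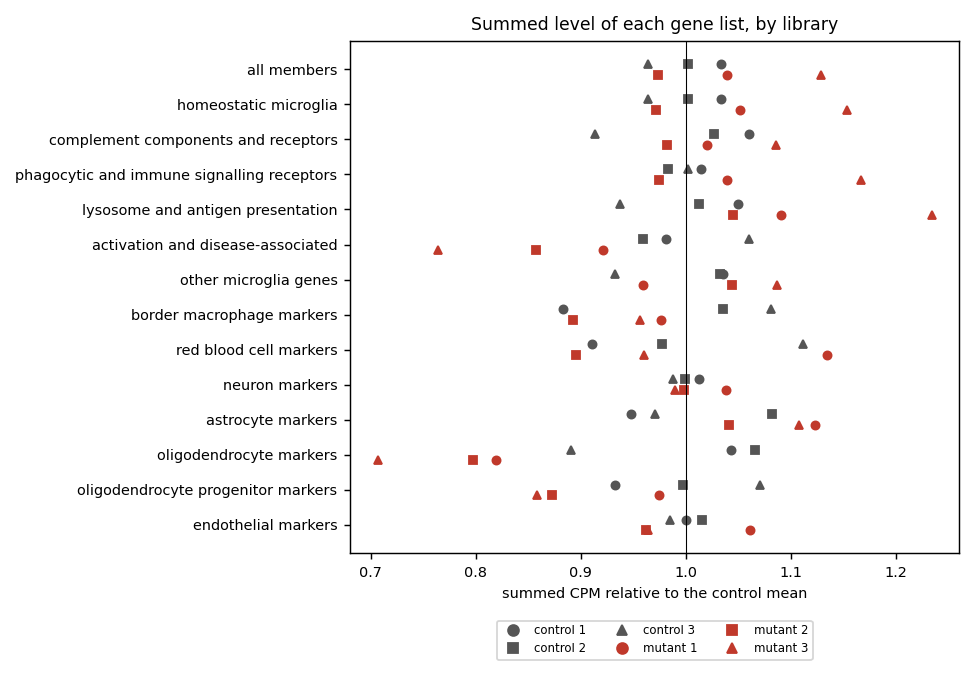
Summed CPM of each gene list in each library, divided by the mean of the 3 controls, with grey points for controls, red points for mutants and shapes for replicate numbers. Mutant replicate 3 lies farthest to the right in 4 of the 5 role groups and farthest to the left for the activation genes and the oligodendrocyte markers.

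Per kilobase of exon, the control levels of the 34 genes spanned from 64.4 CPM for C1qa to 0.063 for Itgax. After C1qa and C1qb came Ctss at 48.6, Tyrobp at 33.9, C1qc and P2ry12 both at 32.5, Csf1r at 27.5, Cx3cr1 at 24.5, Fcrls at 22.8 and Tmem119 at 19.8. C3 and Clec7a, at 0.304 and 0.245, were near the bottom. The C1q chains and the leading homeostatic genes thus stood far above the activation genes Clec7a, Cst7 and Itgax per kilobase of exon. The other activation genes were higher, with Spp1 at 10.9 and Lpl at 4.09. Spp1 was thus above some homeostatic genes, such as Gpr34 at 10.7 and Siglech at 6.80.

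Genes upstream of the microglial programme were compared in the same fit. Of 12 myeloid transcription factors 0 passed the adjusted or unadjusted threshold in edgeR, against 0.628% and 6.51% of all genes. Spi1, which encodes PU.1, the factor that specifies the macrophage lineage, was at 6.45, 5.86 and 5.53 CPM in the controls and at 5.60, 6.79 and 7.78 CPM in the mutants (log2 fold change 0.18 ± 0.17 SE), and Irf8, a partner of PU.1, had means of 7.86 ± 1.26 (SD, n = 3) and 8.99 ± 0.89 CPM. Both were lower in level than most microglial genes and overlapped between genotypes.

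A further list held 12 ligands and related genes that support or instruct microglia. In edgeR 0 passed the adjusted threshold and 1 the unadjusted one, against 0.628% and 6.51% of all genes. That gene was Il34, the ligand of the Csf1r receptor made by neurons, at 31.4, 31.0 and 32.4 CPM in the controls and at 28.5, 26.4 and 27.0 CPM in the mutants (log2 fold change -0.21 ± 0.09 SE, unadjusted p = 0.0319 and adjusted p = 0.681 by edgeR). Each mutant value of Il34 lay below each control value. Csf1, the other ligand of the receptor, had means of 28.7 ± 2.43 (SD, n = 3) and 27.4 ± 1.34 CPM. Cx3cl1, the fractalkine that Cx3cr1 binds, had 402 ± 22.4 and 372 ± 31.0 CPM, Tgfb1, a growth factor that microglia need to mature, had 12.5 ± 1.46 and 14.3 ± 3.95 CPM, and Cd47, a signal against engulfment, had 319 ± 12.1 and 301 ± 20.6 CPM.

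Of 40 other genes of the complement pathway, its regulators and brain proteins with complement domains, 32 were tested, and 1 was called, in the direction that 0.532% of all genes took. Cd59b, an inhibitor of the membrane attack complex, was at 0.53, 0.59 and 0.34 CPM in the controls and at 1.76, 1.57 and 2.40 CPM in the mutants (log2 fold change 1.97 ± 0.38 SE, adjusted p = 0.00962 by edgeR), from 8, 8 and 5 counts against 22, 21 and 33. It was higher in 3 of 3 mutants, but 14.1% of its 50-base words occur in other genes (its paralog Cd59a, Efr3a and Gm28625), so the origin of reads in those words is uncertain. The call held in 11 of 13 alternative settings. Without control replicate 3 its adjusted p was 0.0836 and without mutant replicate 3 it was 0.0871. Cd59a itself, with the same known function, had means of 8.35 ± 0.27 (SD, n = 3) and 9.01 ± 0.96 CPM. C4b, which links C1q to C3 in the classical pathway, had 15.4 ± 2.63 and 17.7 ± 1.99 CPM (log2 fold change 0.20 ± 0.13 SE, adjusted p = 0.902 by edgeR).

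The promoters of the listed genes were read for the string GAGGAAGT, a core of the sequence that PU.1 binds, on both strands of a window from 250 bases before to 50 bases after each start. RefSeq windows (GRCm38.p6) were at hand for 25 of the 34 genes, all but Tmem119, Csf1r, Gpr34, Selplg, C1qa, Itgb2, Tyrobp, Cd74 and Lpl. The string occurred in 4 of the 25, or 16.0%, and in 3.69% of 27025 genes. They were C1qc, Apbb1ip, Ctss and Spp1, which include the gene with the lowest log2 fold change and 3 with values of 0.07 to 0.25. The shorter string GAGGAAG, which lies within the longer one, occurred in 10 of the 25 (40.0%) and in 15.4% of all genes. Other strings were also read. AGGAAGT occurred in 36.0% of the 25 and 10.7% of all genes, and GGAAGTG in 40.0% and 12.5%. GAGGAA occurred in 60.0% and 31.3%. These matches describe letters in a window and were not tested as binding sites. The 4 stretches are shown on the strand of the gene, 5′ to 3′, with the string in capitals (as ACTTCCTC where it lies on the opposite strand), since they hold the same string in genes whose fold changes differ in sign.
C1qc (chr4:136893052-136893151, minus strand): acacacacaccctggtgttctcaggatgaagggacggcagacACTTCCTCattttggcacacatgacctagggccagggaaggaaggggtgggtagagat
Spp1 (chr5:104434956-104435055, plus strand): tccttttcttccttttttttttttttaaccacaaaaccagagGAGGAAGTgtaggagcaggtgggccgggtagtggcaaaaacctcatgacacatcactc
Apbb1ip (chr2:22774321-22774350, plus strand): gggctcaaagcACTTCCTCctccctgagcc
Ctss (chr3:95526773-95526802, plus strand): aatgaaagttcACTTCCTCattgtggatgc
In C1qc 187 bases and in Spp1 105 bases lay between the end of the string and the RefSeq start, in Apbb1ip it lay 5 bases after the start, and in Ctss it spanned it. In GENCODE M21 the genes of C1qc (to 136893065, minus strand) and Apbb1ip (from 22774094) reach farther upstream than these RefSeq starts. The first bases after the RefSeq start of Spp1 were not found in its GENCODE transcripts.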

How the data were processed

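RNA of whole brains from 3 control and 3 mutant mice was polyA-selected and sequenced as single reads by the authors, who trimmed them (Trim Galore 0.5.0), removed abundant sequences (Bowtie2 2.3.4.1), aligned to GRCm38 with STAR and counted reads per gene with featureCounts (Subread 1.6.2). The deposited values are raw counts. The strand setting is not given in the sources used here. Symbols came from GENCODE M21, which matched 54495 of 54532 identifiers.

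Genotypes were compared with edgeR 4.0.16 (R 4.3.3): filterByExpr, TMM, quasi-likelihood F test without covariates, Benjamini-Hochberg adjustment over 16731 genes, threshold 0.05. CPM used effective library sizes. No pair of replicates matched closely enough to be 1 library deposited again (chi-square per degree of freedom 3.67 to 13.6). The steps were tested on simulated counts. Alternatives were RLE factors, DESeq2 1.42.0, limma-voom (limma 3.58.1), other filters, the replicate number as a block, protein-coding genes only, and each library left out.

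The genes and lists were chosen with earlier results of these data known. Full values are given for genes at p under 0.05, the extremes and the highest level per kilobase of each role group, and a fixed set of markers and pathway genes. The others are given as means or counts. No set test was run.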

Additional observations from a re-analysis of the deposited data

How the results depend on the processing

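Under every alternative that was run except the fit without a filter on low counts, 0 of the genes were called. Without the filter 1 was called, and it was lower (Spp1). At an unadjusted p under 0.05 there were 3, of which 2 were higher and 1 was lower. Leaving out 1 library at a time gave 0 calls each time, and the median log2 fold change then ran from -0.01 to 0.11. Among the genes given with full values, the sign of 9 small log2 fold changes depended on single libraries. They ranged from -0.28 to 0.16 for Aif1, from -0.073 to 0.089 for C1qa, from -0.078 to 0.11 for Tyrobp and from -0.29 to 0.054 for Cd74. The ranges were -0.22 to 0.26 for Clec7a, -0.12 to 0.079 for Tmem119, -0.049 to 0.064 for C1qb, -0.091 to 0.25 for C3 and -0.012 to 0.13 for Itgam. The signs of the genes given only as means were not compared between the alternatives. Over all genes 105 were called, 242 without the filter, and 66 to 162 when 1 library was left out. The cause was not tested.

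The genotypes share replicate numbers in the labels. Deviations of same-numbered libraries correlated at 0.104, -0.0467 and 0.0804, so these libraries varied together little or not at all. The study describes its control and mutant brains as littermates. Which brains shared a litter is not given in the labels, and these correlations cannot show it. With the replicate block 0 of the genes were called, their median log2 fold change was 0.06 and 124 genes were called overall. With 3 mice per genotype and few reads for C3, Clec7a, Cst7 and Itgax, modest changes of these genes were not detectable at this depth.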

Other observations

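Further gene lists of the same cells were fitted in the same edgeR test. Of 30 other microglia genes, 30 were tested and 0 passed the adjusted threshold. At an unadjusted p under 0.05, 2 of the 30 were higher (Tlr7 and Dock2), against 4.09% of all genes. Mutant replicate 3 held the highest value of 16 of the 30, against 17.6% of all genes. Tlr7, a sensor of single-stranded RNA, was at 5.25, 6.81 and 6.07 CPM in the controls and at 9.04, 6.49 and 10.1 CPM in the mutants, with an adjusted p of 0.439 by edgeR, and it was named after its values were seen.

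Of 19 genes of lysosomes and lipid handling that are linked to disease-associated microglia, 17 were tested and 0 passed the adjusted threshold in edgeR. At an unadjusted p under 0.05 by edgeR, 3 of the 17 were lower (Cd9, Cd63 and Ctsl), against 2.41% of all genes. Log2 fold changes were above 0 for 3 of the 17, against 47.6% of all genes. For Cd9, Cd63 and Lamp1 all mutant values lay below all control values, as for 5.42% of all genes, while for Ctsl the groups overlapped. Cd9, a tetraspanin that oligodendrocytes also express, was at 123, 114 and 134 CPM in the controls and at 101, 104 and 96.7 CPM in the mutants, with an adjusted p of 0.152 by edgeR. Cd9, Cd63, Ctsl and Lamp1 were named after their values were seen. Apoe, an abundant lipid carrier of astrocytes and microglia, had means of 3584 ± 368 (SD, n = 3) and 3473 ± 438 CPM. Of 10 antigen presentation genes 9 were tested and of 6 proliferation genes 6. In edgeR 0 of either passed the adjusted or unadjusted threshold, against 0.628% and 6.51% of all genes.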
